A study of Oryza sativa with 12 samples.

Results

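The genes described here are the gibberellin receptor and signalling genes of rice, followed in young panicles of 4 lines. They were picked from the table by locus identifier: GID1 (Os05t0407500, chromosome 5), SLR1 (Os03t0707600, chromosome 3), Os02t0580300 (listed under the name GID2, chromosome 2), SLRL1 (Os01t0646300, chromosome 1), SPY (Os08t0559300, chromosome 8) and GAMYB (Os01t0812000, chromosome 1). All 6 genes had rows in the deposited table, with 10 transcripts in all among 40722 transcripts of 34126 loci. All 10 transcripts passed the filter on low counts, as did 31643 transcripts of 25551 loci in the whole table.

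Gibberellins are growth hormones that promote the elongation of stems, leaves and panicle axes. The hormone binds the soluble receptor GID1, and the bound receptor takes hold of the DELLA protein SLR1, a repressor of growth. The F-box protein GID2 then marks SLR1 for degradation, which frees the genes that SLR1 holds down. SLRL1 is a relative of SLR1 that lacks the DELLA motif and also represses gibberellin responses when overproduced, SPY is a glycosyltransferase that lowers the response, and GAMYB is a MYB transcription factor that acts downstream in the aleurone and the anther.

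Libraries were made from RNA of young panicles at the 2-mm stage, 3 for each line. NIL-Prl5ST-1 is a near-isogenic line that carries, in the background of the cultivar Koshihikari, the chromosome 5 segment of the variety ST-1 with Prl5, the gibberellin 20-oxidase gene GA20ox4. NIL-Pbl6ST-1 carries the chromosome 6 segment of ST-1 with Pbl6, the F-box gene APO1, and NIL-Prl5ST-1+Pbl6ST-1 carries both segments. Koshihikari, with neither segment, is the recurrent parent that all 3 lines share, and the comparison asks whether transcripts of the signalling pathway differed with either segment. Each introgressed line is a single line, so an effect of Prl5 or Pbl6 cannot be told apart from that of other ST-1 genes in its segments. The study's methods state in general terms that biological replicates were used, but the labels do not tie the 3 libraries of a line to separate plants. The p-values therefore weigh a difference against the variation between these libraries, which may not be that between plants.

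Total counts ranged from 16041196 to 31760529 per library, and 3 counts were worth 0.0971 to 0.192 cpm (the count scaled to the normalized library size, the unit of all levels here). All 8 panicle markers looked up, such as the homeobox transcript Os03t0727000-01 (163 to 274 cpm), had counts in the 12 libraries, and APO1 was at 0.890 to 2.23 cpm. The summed level of 15 leaf transcripts (chlorophyll a/b binding proteins and the small subunit of ribulose bisphosphate carboxylase) was 61.9 to 85.5 cpm in NIL-Prl5ST-1, 39.9 to 45.4 cpm in NIL-Pbl6ST-1, 49.4 to 62.4 cpm in NIL-Prl5ST-1+Pbl6ST-1 and 44.7 to 80.2 cpm in Koshihikari. On the first principal component, which held 40.3% of the variance, NIL-Prl5ST-1 replicate 2 lay at 19.1 against 52.5 and 55.2 for the other libraries of its line. Koshihikari replicate 2 lay at 24.9, against -7.93 and -0.753 for the other Koshihikari libraries. Calls of the members that rest on these 2 libraries are therefore given with and without them. For the word lists, such changes are given for some of the counts only. In bulk panicles, fewer cells of a type and less RNA per cell cannot be told apart.

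Levels of the receptor and repressor genes differed little between the lines. No member gene passed an adjusted p of 0.05 in any of the 6 comparisons by the main test on all libraries. A single alternative model on all libraries, with the replicate number as a block, placed SLRL1 just under the threshold for the Pbl6 segment. By the fitted values, GID1 averaged 1.17-fold the Koshihikari level in NIL-Prl5ST-1, and SLRL1 averaged 1.26-fold in NIL-Pbl6ST-1. GAMYB, at 1.48 to 3.06 cpm, averaged 0.731-fold the Koshihikari level in NIL-Prl5ST-1 (transcript Os01t0812000-02). When libraries that stood apart were left out, GID1, SLR1, SPY, SLRL1 and Os02t0580300 each passed the threshold in at least 1 comparison, as detailed below for each line.

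**Figure D1:**
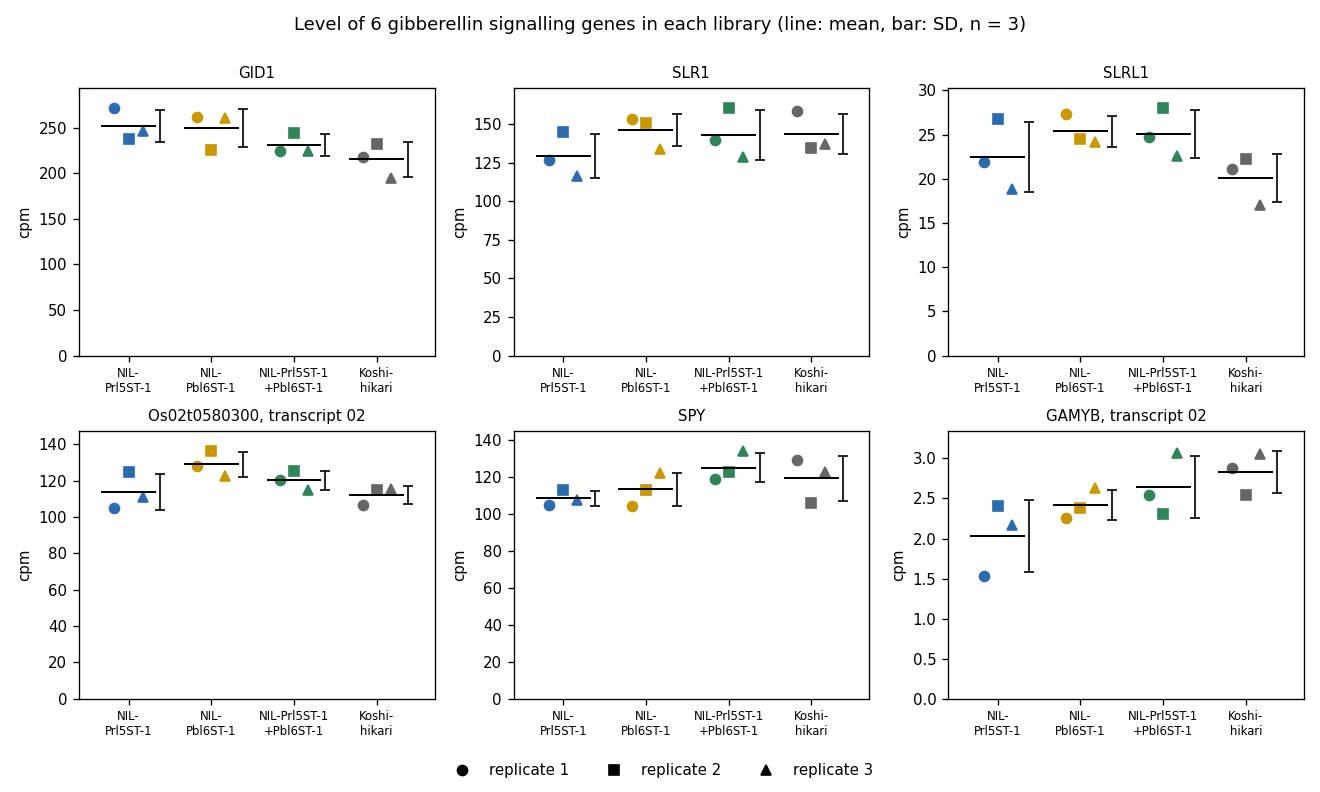
Level in cpm of each of the 6 genes (most abundant transcript of each) in the 12 libraries, with points for replicates 1 to 3, a line for the mean and a bar for the SD (n = 3 libraries per line). All axes start at 0, and SLR1 and SPY overlap Koshihikari in every line. Libraries lie apart from Koshihikari for GID1 (above) and GAMYB (below) in NIL-Prl5ST-1, for Os02t0580300 (above) in NIL-Pbl6ST-1, and for SLRL1 (above) in both lines with the Pbl6 segment.

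The receptor gene GID1 stood at the 98.2 percentile of mean cpm among the transcripts tested. It was at 272, 237 and 246 cpm in NIL-Prl5ST-1, at 262, 226 and 261 cpm in NIL-Pbl6ST-1, at 224, 244 and 224 cpm in NIL-Prl5ST-1+Pbl6ST-1, and at 218, 233 and 194 cpm in Koshihikari. The NIL-Prl5ST-1 libraries were all above the Koshihikari libraries, whereas those of the other lines overlapped Koshihikari. The line means were 252 ± 17.8, 250 ± 20.4, 231 ± 11.8 and 215 ± 19.3 cpm in the same order of lines (SD, n = 3 each). GID1 is annotated in the deposited table only as an alpha/beta hydrolase fold-3 protein, the fold of the receptor.

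The DELLA gene SLR1 was at 127, 145 and 117 cpm in NIL-Prl5ST-1, at 154, 151 and 134 cpm in NIL-Pbl6ST-1, at 140, 160 and 129 cpm in NIL-Prl5ST-1+Pbl6ST-1, and at 158, 135 and 137 cpm in Koshihikari. Its line means lay between 129 ± 14.2 cpm in NIL-Prl5ST-1 and 146 ± 10.5 cpm in NIL-Pbl6ST-1 (SD, n = 3 each), and every line overlapped Koshihikari. SLRL1, the relative without the DELLA motif, was at 21.9, 26.7 and 18.8 cpm in NIL-Prl5ST-1, at 27.4, 24.5 and 24.2 cpm in NIL-Pbl6ST-1, at 24.7, 28.0 and 22.5 cpm in NIL-Prl5ST-1+Pbl6ST-1, and at 21.1, 22.2 and 17.0 cpm in Koshihikari. All libraries of both lines with the Pbl6 segment were above all Koshihikari libraries for SLRL1, and the NIL-Prl5ST-1 libraries spread across that range. Of all transcripts, 14.9% in NIL-Pbl6ST-1 and 10.5% in NIL-Prl5ST-1+Pbl6ST-1 lay above Koshihikari without overlap. The deposited table describes SLR1 as OsGAI and SLRL1 as similar to the DELLA protein RGA2. The table gives no transcript lengths, so the cpm of different genes, and their percentiles, also reflect transcript length and are not compared as expression levels.

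The locus listed as GID2, Os02t0580300, is described in the deposited table as similar to a 14-3-3 protein. In the reference table of gene names, a gene with the symbol GID2 overlaps a 14-3-3 gene at this locus. These counts therefore cannot be assigned to the F-box protein, and the locus is called by its identifier here. Transcript Os02t0580300-02 was at 105, 125 and 111 cpm in NIL-Prl5ST-1, at 128, 136 and 122 cpm in NIL-Pbl6ST-1, at 121, 125 and 115 cpm in NIL-Prl5ST-1+Pbl6ST-1, and at 106, 115 and 115 cpm in Koshihikari. The NIL-Pbl6ST-1 libraries were above the Koshihikari libraries without overlap. Its 3 transcripts had nearly equal counts. Os02t0580300-02 held 99.5 to 103% of the count of Os02t0580300-01 in each library and Os02t0580300-03 held 94.4 to 96.5%, so that they were not read as independent measurements.

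SPY was at 105, 113 and 107 cpm in NIL-Prl5ST-1, at 104, 113 and 122 cpm in NIL-Pbl6ST-1, at 119, 122 and 134 cpm in NIL-Prl5ST-1+Pbl6ST-1, and at 129, 106 and 123 cpm in Koshihikari. The Koshihikari libraries spanned most of the range of SPY, so no line was separate from them. GAMYB had the fewest counts of the members and lay near the 24.3 percentile of mean cpm, with 28 to 77 counts per library for transcript Os01t0812000-02. That transcript was at 1.53, 2.40 and 2.17 cpm in NIL-Prl5ST-1, at 2.25, 2.38 and 2.63 cpm in NIL-Pbl6ST-1, at 2.55, 2.31 and 3.06 cpm in NIL-Prl5ST-1+Pbl6ST-1, and at 2.88, 2.54 and 3.06 cpm in Koshihikari. The NIL-Prl5ST-1 libraries were all below the Koshihikari libraries for GAMYB, by as little as 2.40 against 2.54 cpm at the nearest pair. The other GAMYB transcripts held 102.5 to 118% (Os01t0812000-02) and 95.3 to 124% (Os01t0812000-03) of the count of Os01t0812000-01.

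The order of the lines by mean level differed between the genes. GID1 was highest in NIL-Prl5ST-1, followed by NIL-Pbl6ST-1, NIL-Prl5ST-1+Pbl6ST-1 and Koshihikari. SLRL1 and Os02t0580300 had the order NIL-Pbl6ST-1, NIL-Prl5ST-1+Pbl6ST-1, NIL-Prl5ST-1 and Koshihikari. SPY was highest in NIL-Prl5ST-1+Pbl6ST-1 and lowest in NIL-Prl5ST-1, SLR1 was highest in NIL-Pbl6ST-1 and lowest in NIL-Prl5ST-1, and GAMYB was highest in Koshihikari and lowest in NIL-Prl5ST-1. The libraries overlapped in all 18 pairs of lines that were next to each other in these orders, with exact two-sided permutation p between 0.2 and 1, where 3 libraries against 3 allow no p below 0.1. These pairs were the closest ones by construction and the test could not pass 0.05, so it shows only that their order was not resolved by 3 libraries a line.

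**Figure D2:**
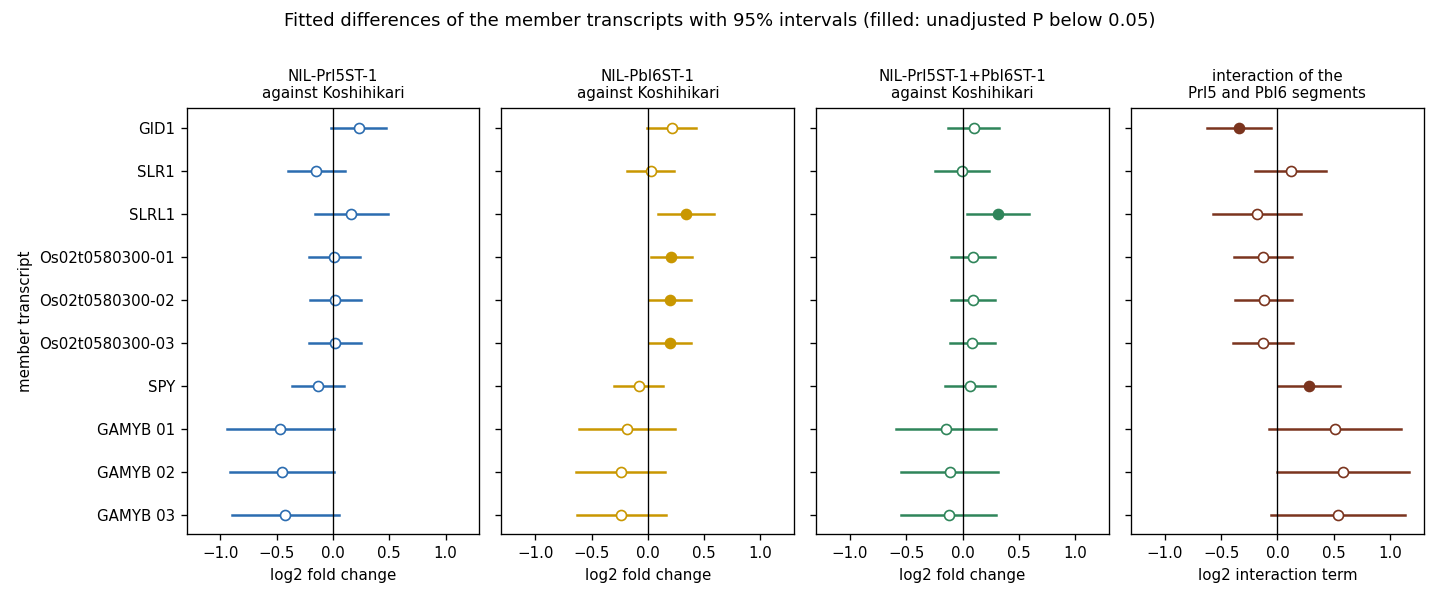
Fitted log2 fold change of each of the 10 transcripts in the 3 lines against Koshihikari, and the interaction of both segments (log2), each with its 95% interval. Filled points have an unadjusted P below 0.05, which holds for SLRL1 and Os02t0580300 in NIL-Pbl6ST-1, for SLRL1 in NIL-Prl5ST-1+Pbl6ST-1, and for GID1 and SPY in the interaction.

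In NIL-Prl5ST-1 against Koshihikari, GID1 was at 1.17-fold the Koshihikari level (95% interval 0.990 to 1.39, adjusted p = 0.223 by the edgeR quasi-likelihood test over all transcripts). SLR1 was 0.903-fold (0.760 to 1.07, adjusted p = 0.439), SLRL1 was 1.12-fold (0.895 to 1.40, adjusted p = 0.510) and SPY was 0.911-fold (0.776 to 1.07, adjusted p = 0.441) of the Koshihikari level. The GAMYB transcripts Os01t0812000-01, Os01t0812000-02 and Os01t0812000-03 were at 0.723-fold, 0.731-fold and 0.746-fold, with adjusted p of 0.205, 0.210 and 0.244. Os02t0580300 was closest to no difference, at 1.01-fold to 1.02-fold for its transcripts. By this test 0 of 6 genes were called, against 0.743% of all transcripts tested (235 of 31643). At an unadjusted P below 0.05, 0 of 10 member transcripts passed, against 24.9% of all transcripts. DESeq2 and the edgeR exact test also called 0 of the 6 genes at an adjusted p below 0.05. Libraries did not overlap for 3 member transcripts, GID1 (higher) and 2 transcripts of GAMYB (lower), against 24.4% of all transcripts, and the exact permutation p of each was 0.1, the smallest possible here. The median log2 fold change of the member transcripts was -0.06, against -0.01 over all transcripts.

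This comparison was changed by the libraries that stood apart. Without Koshihikari replicate 2 and NIL-Prl5ST-1 replicate 2, a setting chosen after seeing the data, GID1 was higher in NIL-Prl5ST-1 by 0.34 on the log2 scale (adjusted p = 0.00648, edgeR), SLR1 was lower (-0.27, adjusted p = 0.0290) and SPY was lower (-0.23, adjusted p = 0.0301). That made 3 of 6 genes called, in a setting in which 36.8% of all transcripts were called. The count of members was therefore read against a background that also grew when these libraries were left out. With any single library left out, 0 members were called. The leaf transcripts summed to 61.9 cpm in NIL-Prl5ST-1 replicate 2 against 77.5 and 85.5 cpm in the other NIL-Prl5ST-1 libraries, and to 80.2 cpm in Koshihikari replicate 2 against 55.8 and 44.7 cpm in the other Koshihikari libraries. Their part in these differences was not tested.

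In NIL-Pbl6ST-1 against Koshihikari, the repressor-like gene SLRL1 had the lowest adjusted p of the members. It was at 1.26-fold the Koshihikari level (95% interval 1.06 to 1.5003, adjusted p = 0.0889 by edgeR). Os02t0580300-01 was at 1.16-fold (1.02 to 1.32, adjusted p = 0.148), and the other transcripts of the locus were at 1.15-fold with adjusted p of 0.1702 and 0.175. GID1 was 1.16-fold (0.996 to 1.35, adjusted p = 0.210), SLR1 1.02-fold (0.881 to 1.18), SPY 0.947-fold (0.814 to 1.10) and GAMYB 0.846-fold to 0.877-fold over its transcripts. The test called 0 of 6 genes, against 8.49% of all transcripts (2686), and DESeq2 and the edgeR exact test also called 0. At an unadjusted P below 0.05, 4 of 10 transcripts of 2 genes passed, all higher, against 25.3% of all transcripts. The same 4 transcripts had libraries that did not overlap with Koshihikari, against 29.8% of all transcripts. The median log2 fold change was 0.11 over the member transcripts and close to 0 (-0.0038) over all transcripts.

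The calls of members in this comparison changed only when Koshihikari replicate 2 was left out. Without it, SLRL1 (0.42 on the log2 scale, adjusted p = 0.00859), GID1 (0.27, adjusted p = 0.0304) and Os02t0580300-01 (0.23, adjusted p = 0.0458) were higher in NIL-Pbl6ST-1 and passed the threshold, so that 3 of 6 genes were called, against 23.2% of all transcripts in that setting (7326). With any other single library of these lines left out, 0 genes were called, and the log2 fold change of SLRL1 ranged from 0.23 to 0.42. Koshihikari replicate 2 had the highest GID1 and SLRL1 levels of its line, at 233 and 22.2 cpm.

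In NIL-Prl5ST-1+Pbl6ST-1 against Koshihikari, SLRL1 was at 1.25-fold the Koshihikari level (1.03 to 1.51, adjusted p = 0.280 by edgeR). It was the 1 member transcript of 10 with an unadjusted P below 0.05 and the 1 with libraries that did not overlap, against 13.8% and 20.2% of all transcripts. GID1 was 1.07-fold (0.916 to 1.25), SLR1 0.994-fold (0.843 to 1.17), SPY 1.05-fold (0.896 to 1.22), Os02t0580300-01 1.07-fold (0.931 to 1.22) and Os01t0812000-02 of GAMYB 0.925-fold (0.686 to 1.25). The test called 0 of 6 genes, against 2.16% of all transcripts (685), and DESeq2 and the exact test of edgeR also called 0. No setting tried called a member in this comparison, the omission of single libraries included. The 3 comparisons share the Koshihikari libraries, so that the higher values of SLRL1 in the lines are not independent of each other.

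**Figure D3:**
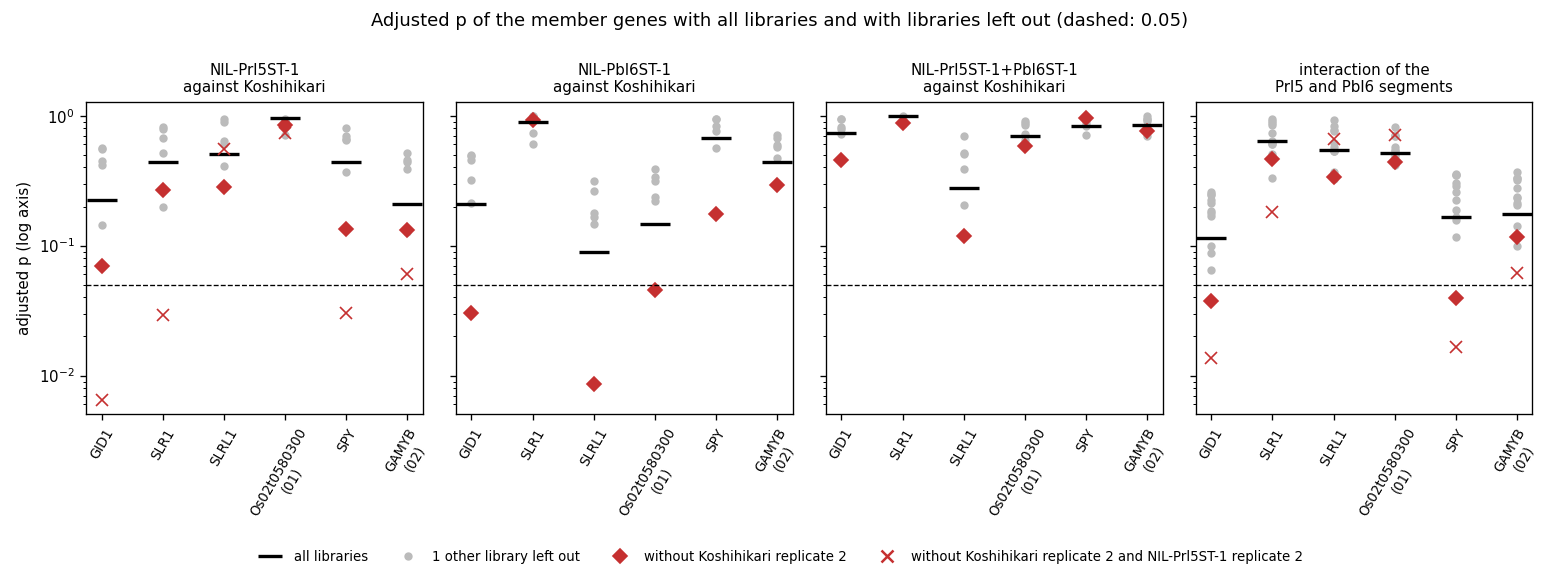
Adjusted p (log axis) of each member gene in the 3 comparisons with Koshihikari and for the interaction, with all libraries (black line), with 1 other library left out (grey), without Koshihikari replicate 2 (red diamond), and without both Koshihikari replicate 2 and NIL-Prl5ST-1 replicate 2 (red cross, drawn where the comparison holds both libraries). The dashed line marks 0.05, and the points below it are red ones only, for GID1, SLR1, SLRL1, Os02t0580300 and SPY.

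The 12 libraries were also set against each other by segment, 6 with a segment and 6 without it, with the other segment in the model. For the Prl5 segment, 0 of 6 genes were called by edgeR and 0 of 10 transcripts had an unadjusted P below 0.05, against 0.616% and 10.8% of all transcripts. GID1 was at 1.04-fold (0.922 to 1.17) and SLR1 at 0.939-fold (0.836 to 1.05) in the lines with the segment. For the Pbl6 segment, 0 genes were called, against 16.6% of all transcripts (5242), and 3 transcripts had an unadjusted P below 0.05, against 32.1%. SLRL1 was at 1.19-fold in the lines with the segment (1.03 to 1.37, adjusted p = 0.0920), with an exact permutation p of 0.0303 from a test whose smallest p is 0.0022. Os02t0580300-01 was at 1.11-fold (1.01 to 1.22, adjusted p = 0.126), with an exact permutation p of 0.0281. Unlike the model, these permutations moved all 12 libraries freely and did not take the other segment into account. DESeq2 also called 0 members for either segment.

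SLRL1 lay near the threshold for the Pbl6 segment and crossed it in 3 settings. With the replicate number as a block its adjusted p was 0.04999 (0.25 on the log2 scale), where 13.4% of all transcripts were called. Without NIL-Prl5ST-1 replicate 2 it was 0.0229 (0.33 on the log2 scale) and Os02t0580300-01 also passed at 0.0402 (0.19), against 18.1% of all transcripts. Without both libraries that stood apart SLRL1 had an adjusted p of 0.0274 (0.36), against 12% of all transcripts.

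An interaction term tested whether a gene responded to the Prl5 segment differently in lines that also carried the Pbl6 segment. GID1 had an interaction of -0.34 (log2, 95% interval -0.62 to -0.06, adjusted p = 0.114 by edgeR). Its level in NIL-Prl5ST-1+Pbl6ST-1 (231 cpm) was below that in either single line (252 and 250 cpm) and above that in Koshihikari (215 cpm). SPY had an interaction of 0.28 (0.01 to 0.56, adjusted p = 0.166), with 125 cpm in NIL-Prl5ST-1+Pbl6ST-1 against 108 and 113 cpm in the single lines and 119 cpm in Koshihikari. The test called 0 of 6 genes, against 3.93% of all transcripts (1243), and at an unadjusted P below 0.05 it held 2 transcripts, against 28.9%. Without Koshihikari replicate 2, GID1 (-0.40, adjusted p = 0.0374) and SPY (0.36, adjusted p = 0.0392) passed the threshold, against 24% of all transcripts. Without both libraries that stood apart they were at -0.44 (adjusted p = 0.0137) and 0.39 (adjusted p = 0.0166), against 32.1% of all transcripts. DESeq2 called 0 members for the interaction.

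GID1 lies on chromosome 5, which also carries the Prl5 segment, so the tested loci next to it were described. Among the 20 loci on each side, from Os05g0402851 to Os05g0411200 in the order of identifiers, 5 of 40 were called in NIL-Prl5ST-1 and all of them were lower (12.5%, against 0.743% of all transcripts). In NIL-Prl5ST-1+Pbl6ST-1, 4 of 40 were lower (10%, against 2.16% of all transcripts), and in NIL-Pbl6ST-1, 1 was higher and 2 were lower (7.5%, below the 8.49% of all transcripts). The count in NIL-Prl5ST-1 ranged from 3 without NIL-Prl5ST-1 replicate 1 to 14 without Koshihikari replicate 2, and was 10 without NIL-Prl5ST-1 replicate 2, where 0.209%, 20.8% and 11.3% of all transcripts were called. In NIL-Pbl6ST-1 the omission of Koshihikari replicate 2 gave 6, and the count was 1 without Koshihikari replicate 1 or 3, or NIL-Pbl6ST-1 replicate 1 or 2. In NIL-Prl5ST-1+Pbl6ST-1 it was 2 without replicate 1 of that line. The loci directly beside GID1, Os05g0407200 and Os05g0407550, were not called in any of the 3 lines.

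**Figure D4:**
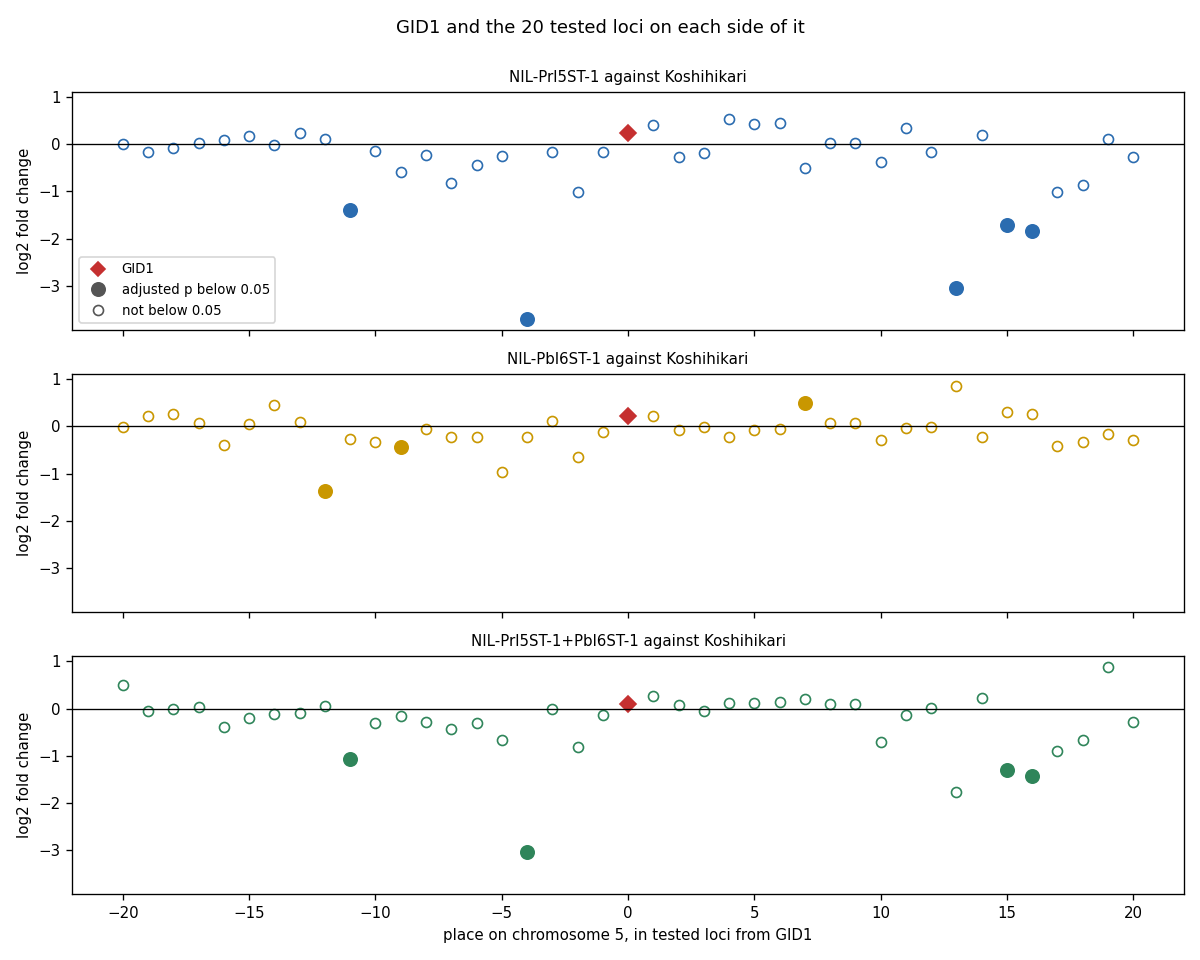
Fitted log2 ratios of line to Koshihikari, in the 3 lines, for GID1 (red diamond, place 0) and the 20 tested loci before and after it on chromosome 5, in the order of their identifiers. Filled points have an adjusted p below 0.05: all 5 in NIL-Prl5ST-1 and all 4 in NIL-Prl5ST-1+Pbl6ST-1 are below 0, while GID1 is close to 0 in each line.

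Of the loci beside GID1, Os05t0406550-01 (a DUF3475 domain protein of unknown function, 4 loci before GID1) was at 0.492, 0.460 and 1.49 cpm in NIL-Prl5ST-1, against 10.3, 12.6 and 11.05 cpm in Koshihikari. It was also low in NIL-Prl5ST-1+Pbl6ST-1, at 0.520, 1.66 and 1.83 cpm, and at 9.31, 9.32 and 10.5 cpm in NIL-Pbl6ST-1. Its log2 fold changes were -3.70 (adjusted p = 0.000129) and -3.05 (adjusted p = 0.000139) in the lines with the Prl5 segment. Os05t0410200-01, an alpha/beta hydrolase fold-3 protein 16 loci after GID1, was at 2.51, 2.30 and 2.72 cpm in NIL-Prl5ST-1 and at 1.98, 5.03 and 2.97 cpm in NIL-Prl5ST-1+Pbl6ST-1, against 9.26, 9.73 and 8.27 cpm in Koshihikari. Its fold changes were -1.85 (adjusted p = 0.000132) and -1.42 (adjusted p = 0.0128), and both transcripts were called in every setting that gave a value. Os05t0405000-02, similar to pyruvate phosphate dikinase and 12 loci before GID1, was lower in NIL-Pbl6ST-1, at 23.0, 26.2 and 24.0 cpm against 75.2, 51.8 and 61.3 cpm in Koshihikari (-1.37, adjusted p = 8.0e-05). Whether reads of ST-1 alleles matched the reference as well as those of Koshihikari was not tested.

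Genes around the 6 members were taken from word lists on the transcript descriptions, formed with earlier results of these data known. Among 15 transcripts of 14 loci of gibberellin metabolism that were tested, 0 were called in NIL-Prl5ST-1, 1 was higher and 3 were lower in NIL-Pbl6ST-1, and 3 were lower in NIL-Prl5ST-1+Pbl6ST-1, against 0.743%, 8.49% and 2.16% of all transcripts. The 3 lower transcripts in each line with the Pbl6 segment came from 2 loci, since the locus of Os03t0856700-01 also has the transcript Os03t0856700-02. In NIL-Prl5ST-1, 4 of the 15 had an unadjusted P below 0.05 (24.9% of all transcripts), DESeq2 also called 0, and 3 were called without Koshihikari replicate 2 (20.8% of all transcripts). Their median log2 fold changes were -0.03, -0.22 and 0.01 in these lines, against -0.01, -0.0038 and -0.01 over all transcripts. Gibberellin 20-oxidase 1 (Os03t0856700-01), which makes precursors of the active hormone, was at 32.7, 35.1 and 33.1 cpm in NIL-Prl5ST-1, at 22.8, 23.4 and 18.7 cpm in NIL-Pbl6ST-1, at 25.0, 20.9 and 18.6 cpm in NIL-Prl5ST-1+Pbl6ST-1, and at 46.9, 38.7 and 42.8 cpm in Koshihikari. All 9 libraries of the 3 lines were below all Koshihikari libraries. The log2 fold change was -0.98 in NIL-Pbl6ST-1 (SE 0.110, adjusted p = 0.000273, edgeR) and -0.999 in NIL-Prl5ST-1+Pbl6ST-1 (SE 0.121, adjusted p = 0.000963), and both fell in each of 14 alternative settings. In NIL-Prl5ST-1 it was -0.34 (SE 0.105, adjusted p = 0.0959).

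A transcript similar to GA 2-oxidase 5 (Os01t0209700-01), an enzyme type that inactivates gibberellins, was at 7.28, 6.81 and 8.14 cpm in NIL-Pbl6ST-1 against 3.76, 3.88 and 3.14 cpm in Koshihikari. It rose by 1.04 on the log2 scale (adjusted p = 0.00130) and did so in 14 of 14 alternatives. It was at 3.17, 3.68 and 2.07 cpm in NIL-Prl5ST-1 (-0.28, adjusted p = 0.456) and at 5.72, 4.57 and 4.55 cpm in NIL-Prl5ST-1+Pbl6ST-1 (0.46, adjusted p = 0.266). A transcript similar to kaurene synthase A (Os02t0278700-01), of an early step of gibberellin synthesis, was lower in NIL-Pbl6ST-1 (-1.41, adjusted p = 0.00265) at 0.893 against 2.43 cpm on average. It was also lower in NIL-Prl5ST-1+Pbl6ST-1 (-1.14, adjusted p = 0.0284), where the adjusted p was between 0.0657 and 0.148 without replicate 1 or 3 of Koshihikari or replicate 1 or 2 of that line. Across lines with and without the Pbl6 segment, gibberellin 20-oxidase 1 fell by 0.82 on the log2 scale (adjusted p = 3.3e-05).

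**Figure D5:**
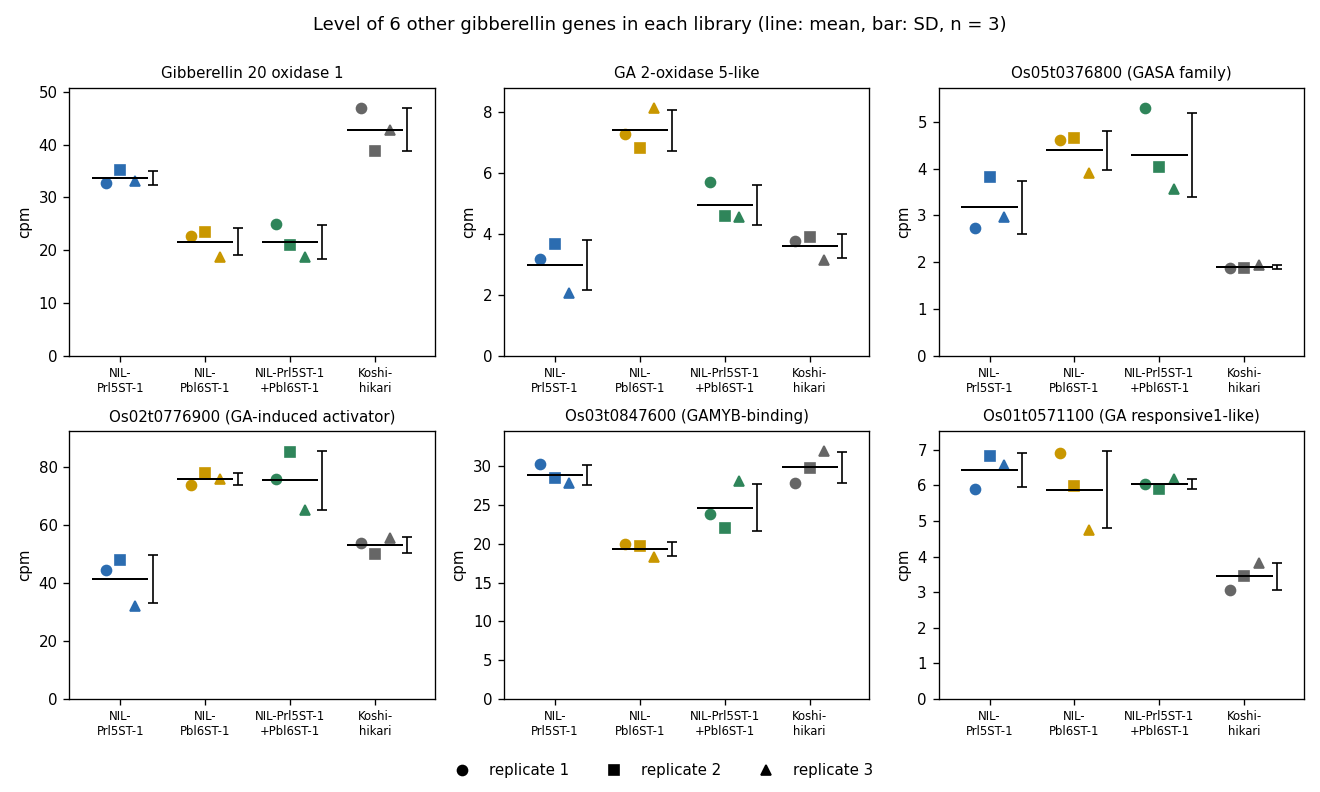
Level in cpm of 6 other gibberellin transcripts in each of the 12 libraries, with points for replicates 1 to 3, a line for the mean and a bar for the SD (n = 3 libraries per line), on axes that start at 0. Gibberellin 20-oxidase 1 is lower in the 2 lines with the Pbl6 segment than in Koshihikari, and the GA 2-oxidase 5-like transcript is highest in NIL-Pbl6ST-1.

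Of the genes named for a response to gibberellin, the GASA family of small cysteine-rich proteins had 8 transcripts tested. In NIL-Prl5ST-1, 0 were called (6 at an unadjusted P below 0.05, median 0.40 on the log2 scale), in NIL-Pbl6ST-1 4 were higher and 0 lower (median 0.38), and in NIL-Prl5ST-1+Pbl6ST-1 1 was higher (median 0.19). Of all transcripts, 0.743%, 8.49% and 2.16% were called in these lines, and 24.9% had an unadjusted P below 0.05 in NIL-Prl5ST-1. The count of 4 ranged from 1 to 7 as single libraries were left out, the lowest with Koshihikari replicate 1 omitted and the highest with Koshihikari replicate 2 omitted. The 0 in NIL-Prl5ST-1 became 7 when Koshihikari replicate 2 was omitted (20.8% of all transcripts), and DESeq2 called 2 there (5.78% of all transcripts). Os05t0376800-01 was at 4.62, 4.66 and 3.91 cpm in NIL-Pbl6ST-1 against 1.88, 1.87 and 1.95 cpm in Koshihikari (1.21 on the log2 scale, adjusted p = 0.00125), and it passed the threshold in all 14 alternatives. It was also above all Koshihikari libraries in NIL-Prl5ST-1, at 2.73, 3.82 and 2.98 cpm (as were 12.7% of all transcripts), but was not called there. In NIL-Prl5ST-1+Pbl6ST-1 the same transcript was higher by 1.17 (adjusted p = 0.0119), with an adjusted p of 0.0531 without Koshihikari replicate 1 and 0.0726 without replicate 1 of that line. The word list is broader than the family, since 2 of the 8 transcripts are described as a ribosomal protein.

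A transcript described as an activator of gibberellin-induced stem elongation (Os02t0776900-01) was at 73.9, 77.9 and 75.9 cpm in NIL-Pbl6ST-1 against 53.8, 50.2 and 55.6 cpm in Koshihikari (0.51 on the log2 scale, adjusted p = 0.00307, called in 14 of 14 alternatives). It was at 76.0, 85.4 and 65.2 cpm in NIL-Prl5ST-1+Pbl6ST-1 (0.50, adjusted p = 0.0345, and 0.0569 to 0.201 without replicate 1 or 3 of Koshihikari or replicate 1 or 2 of that line). It was at 44.4, 47.9 and 31.9 cpm in NIL-Prl5ST-1 (-0.36, adjusted p = 0.144). Of 12 transcripts named for GAMYB besides the member, 0 were called in NIL-Prl5ST-1 and in NIL-Prl5ST-1+Pbl6ST-1. In NIL-Pbl6ST-1, 3 transcripts of 2 loci were lower, where 8.49% of all transcripts were called. Among them, the GAMYB-binding protein Os03t0847600-01 was at 19.9, 19.8 and 18.3 cpm in NIL-Pbl6ST-1, against 27.9, 29.8 and 31.99 cpm in Koshihikari (-0.63, adjusted p = 0.00201, called in 14 of 14 alternatives). The count in NIL-Pbl6ST-1 was 2 to 4 as single libraries were left out. Behind the counts of 0 were 4 transcripts at an unadjusted P below 0.05 in NIL-Prl5ST-1 and 7 in NIL-Prl5ST-1+Pbl6ST-1, of which DESeq2 called 1 and 0. Of all transcripts, 24.9% and 13.8% had an unadjusted P below 0.05 in these lines, and DESeq2 called 5.78% and 3.04%. Without Koshihikari replicate 2, 3 were called in NIL-Prl5ST-1, against 20.8% of all transcripts. Over all alternatives the count there was 0 to 7, where 0.199% to 36.8% of all transcripts were called.

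Among relatives of the receptor, 3 transcripts described as similar to GID1L2 were tested. Os11t0240600-02 was lower across lines with the Pbl6 segment (-0.74 on the log2 scale, adjusted p = 0.000306). It was at 7.81, 7.72 and 6.73 cpm in NIL-Pbl6ST-1 and at 7.02, 8.09 and 6.72 cpm in NIL-Prl5ST-1+Pbl6ST-1, against 12.02, 13.8 and 12.4 cpm in NIL-Prl5ST-1 and 12.2, 14.5 and 9.10 cpm in Koshihikari. The libraries with the segment did not overlap those without it, which held for 6.79% of all transcripts, and 16.6% of all were called for the segment. Against Koshihikari, Os11t0240600-02 was called in NIL-Pbl6ST-1 (-0.68, adjusted p = 0.0247 by edgeR), and in 10 of 14 alternatives there. In NIL-Prl5ST-1 and in NIL-Prl5ST-1+Pbl6ST-1, 0 of the 3 transcripts were called against Koshihikari. The words for DELLA and GRAS proteins gave 48 tested transcripts other than SLR1 and SLRL1, among them 3 of SC35-like splicing factors. Of the 48, 0 were called in NIL-Prl5ST-1, 2 were higher and 1 was lower in NIL-Pbl6ST-1, and 0 were called in NIL-Prl5ST-1+Pbl6ST-1. The higher ones were Os07t0583600-03, similar to a chitin-inducible gibberellin-responsive protein (0.33, adjusted p = 0.0485), and the splicing factor Os03t0363800-01 (0.32, adjusted p = 0.0472). The lower one was the GRAS transcript Os11t0706200-00 (-1.53, adjusted p = 0.0108). In NIL-Pbl6ST-1 this count of 3 was 0 without NIL-Pbl6ST-1 replicate 2 (3.85% of all transcripts) and 13 without Koshihikari replicate 2 (23.2%). The 3 of 48 are to be read against 8.49% of all transcripts. Unadjusted P was below 0.05 for 3 of the 48 in NIL-Prl5ST-1 and for 10 in NIL-Prl5ST-1+Pbl6ST-1, against 24.9% and 13.8% of all transcripts. DESeq2 called 1 and 0 of the 48, against 5.78% and 3.04% of all transcripts. Without Koshihikari replicate 2, 2 of the 48 were called in NIL-Prl5ST-1, against 20.8% of all transcripts. Over all alternatives the count there was 0 to 8, where 0.199% to 36.8% of all transcripts were called. The words for GID2 found only an unrelated transport protein with 2 transcripts, of which 0 were called in the 3 lines by edgeR or DESeq2 and 0 had an unadjusted P below 0.05.

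Across the 12 libraries, the members were also compared with 19979 to 19982 other transcripts of at least 5 cpm on average, by Pearson's r of log2(cpm + 0.5). These values are descriptions, since libraries of a line share the line and the search ran over many transcripts. The pattern of GID1 was most like those of Os03t0159400-01 (a DUF623 domain protein, r = 0.961), Os11t0111000-01 (r = 0.947) and Os10t0413101-01 (r = 0.942). SLR1 was most like Os05t0406800-01, a leucine-rich repeat protein (r = 0.940), SLRL1 like Os04t0496300-01 (r = 0.948), and Os02t0580300-02 like Os03t0792600-02, an AAA+ ATPase (r = 0.931). SPY was most like Os06t0301300-00 (r = 0.962) and a transcript similar to a chromatin remodeling complex subunit, Os10t0457700-01 (r = 0.956). GAMYB was most like Os05t0305300-00 (r = 0.963). Among the members themselves, GAMYB and SPY had an r of 0.741 and GAMYB and GID1 an r of -0.761 over the 12 libraries, and 0.666 and -0.641 after the mean of each line was taken out.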

How the data were processed

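Per the labels, RNA from 2-mm young panicles was sequenced on standard Illumina libraries, and the authors used bcl2fastq, Bowtie and the IRGSP 1.0 build. Versions are not given in the sources used here. The deposited table held whole-number read counts per transcript, which the authors had not normalized. From these counts, transcripts were filtered with filterByExpr (minimum count 10, minimum total 15), scaled by TMM and tested with the quasi-likelihood test of edgeR 4.0.16 in R 4.3.3, using the 6 libraries of each pair of lines, or all 12 for the segments and their interaction. P-values were adjusted by Benjamini-Hochberg over all tested transcripts, with a threshold of 0.05; the study's own threshold, an unadjusted P of 0.05, was counted beside it. Fold changes are fitted values, line over Koshihikari or with over without a segment. Levels are cpm, and log2 values used a pseudocount of 0.5 in the two-sided exact permutation tests and correlations. Intervals cover the spread between libraries. The script was tested on simulated data. Alternatives were DESeq2 1.42.0, its size factors, a minimum of 10 counts in each of the libraries, no filter, counts summed to loci, a replicate block, all 12 libraries in one model, the edgeR exact test, a pseudocount of 2, and the omission of each library.

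The members were read out by identifier, without measured values, but this set of genes and the lists were chosen with earlier results of these data known. The word lists, taken from transcript descriptions, were GID1-like, GID2-like, GAMYB-like, SPY-like, DELLA and GRAS, GASA, gibberellin metabolism, alpha-amylase and other gibberellin, and at most the 3 called transcripts of smallest adjusted p per list and comparison were named. Beside GID1, transcripts named were chosen after their values were seen. The build differs from that of the gene-name table used (ASM3414082v1), so no coordinates are given.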

Additional observations from a re-analysis of the deposited data

Results flagged for a closer look

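For 5 transcripts of the gibberellin word lists, the effect of either segment differed with the presence of the other, by the interaction test of edgeR. The interaction was -0.58 on the log2 scale for Os03t0607200-01 (adjusted p = 0.0446) and -0.78 for Os07t0592000-01 (adjusted p = 0.0452), both of the GASA family of small cysteine-rich proteins. It was -0.88 for Os01t0571100-01 (adjusted p = 0.0418), described as similar to GA responsive 1. For Os07t0287400-01, a lipid transfer and amylase inhibitor domain protein, it was -0.64 (adjusted p = 0.0324). For Os03t0363800-01, a splicing factor that the word list for GRAS proteins took in by its name SCL28, it was -0.47 (adjusted p = 0.0457). The 5 values were negative, so that the line with both segments was below the sum of the single-line differences from Koshihikari. The 5 were 2 of 8 tested transcripts in the GASA list and 1 of 48 in the DELLA and GRAS list. The alpha-amylase list gave 1 of 11 and the other gibberellin list 1 of 3. In the lists for gibberellin metabolism, GAMYB, GID1, GID2 and SPY, 0 of 15, 12, 3, 2 and 1 tested transcripts were called. Of all transcripts, 3.93% were called for the interaction (1243), and the 5 are to be read against that share. The 5 transcripts were called in 8 to 11 of 19 alternatives. None of them passed the threshold without Koshihikari replicate 1, where their adjusted p was 0.0924 to 0.121. The same holds without Koshihikari replicate 3, NIL-Prl5ST-1 replicate 1 or 3, any NIL-Pbl6ST-1 library or NIL-Prl5ST-1+Pbl6ST-1 replicate 3, and in these settings 7 to 59 transcripts of the whole table were called.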

How the results depend on the processing

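In NIL-Prl5ST-1 against Koshihikari, 0 members were called with any single library left out (0.199% to 20.8% of all transcripts). Without both Koshihikari replicate 2 and NIL-Prl5ST-1 replicate 2, 3 were called (36.8% of all transcripts). In NIL-Pbl6ST-1 the count was 0 to 3 over the left-out libraries (3.37% to 23.2% of all transcripts). For the Pbl6 segment it was 1 with the replicate block (13.4%), 0 to 2 over the left-out libraries (9.51% to 18.1%) and 1 without both libraries (12%). For the interaction it was 0 to 2 over the left-out libraries (0.0221% to 24%) and 2 without both (32.1%). The number of tested loci beside GID1 that were called in NIL-Prl5ST-1 was 9 by DESeq2, 10 with no filter, 3 with at least 10 counts in every library, 3 with the replicate block, 13 in the model of all 12 libraries, 11 by the exact test, 3 to 14 over the left-out libraries and 18 without both. In the same order, 5.78%, 4.5%, 0.458%, 0.218%, 11.5%, 8.15%, 0.199% to 20.8% and 36.8% of all transcripts were called. The counts beside GID1 are to be read against these shares. Over the left-out libraries, the number of called loci beside GID1 was 1 to 6 in NIL-Pbl6ST-1 (3.37% to 23.2% of all transcripts). In NIL-Prl5ST-1+Pbl6ST-1 it was 2 to 5 (0.853% to 2.65% of all transcripts). With a pseudocount of 2 the mean log2 difference of GAMYB in NIL-Prl5ST-1 was -0.26 (Os01t0812000-02) and -0.25 (Os01t0812000-03). The causes were not tested.

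Directions turned only for member differences near 0 that were not called. Over the left-out libraries, Os02t0580300-01, Os02t0580300-02 and Os02t0580300-03 ranged from -0.066 to 0.066, -0.046 to 0.073 and -0.065 to 0.073 in NIL-Prl5ST-1, and were -0.04, -0.02 and -0.03 without both libraries. SLR1 ranged from -0.016 to 0.10 in NIL-Pbl6ST-1 and from -0.10 to 0.068 in NIL-Prl5ST-1+Pbl6ST-1. SPY ranged from -0.012 to 0.13 in NIL-Prl5ST-1+Pbl6ST-1 and from -0.038 to 0.045 for the Prl5 segment, where it was -0.000879 with no filter and -0.013 without both libraries. For the Prl5 segment SLRL1 ranged from -0.0038 to 0.11. For the Pbl6 segment GID1 ranged from -0.0089 to 0.089, and the GAMYB transcripts from -0.0088 to 0.13, -0.038 to 0.11 and -0.050 to 0.098.

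Replicate numbers are shared by the lines, but same-numbered libraries of Koshihikari and the other lines had correlations of deviations between -0.381 and 0.443. Among the other lines themselves, same-numbered libraries had values between -0.160 and 0.191, mostly above 0. The numbers were not taken to pair the samples in the main test, and a replicate block was tried beside it. With the replicate block, 69 transcripts were called in NIL-Prl5ST-1, 1750 in NIL-Pbl6ST-1, 1292 in NIL-Prl5ST-1+Pbl6ST-1 and 142 for the interaction, against 235, 2686, 685 and 1243 without it. Beside SLRL1 for the Pbl6 segment, the block changed no call of a member. Over the left-out libraries it was 63 (without Koshihikari replicate 1) to 6574 (without Koshihikari replicate 2) in NIL-Prl5ST-1, 1067 to 7326 in NIL-Pbl6ST-1, 270 to 837 in NIL-Prl5ST-1+Pbl6ST-1 and 7 (without NIL-Pbl6ST-1 replicate 1) to 7579 (without Koshihikari replicate 2) for the interaction. The count in NIL-Prl5ST-1 was also 1830 by DESeq2, 1796 with no filter, 130 with at least 10 counts in every library, 3635 in the model of all 12 libraries and 2580 by the exact test. In NIL-Prl5ST-1+Pbl6ST-1 it was 1327 by the exact test and 1066 in the model of all 12 libraries, for the Prl5 segment 467 by DESeq2 and 127 under the stricter filter of 10 counts, against 195, and for the interaction 3123 by DESeq2, 2877 with no filter and 781 for loci. GAMYB, with 28 to 77 counts per library (Os01t0812000-02), was the member with the fewest counts. How far depth limited the precision of its values was not tested.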

Other observations

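Among other gibberellin transcripts, Os01t0571100-01, described as similar to GA responsive 1, was above Koshihikari in all lines. It was at 5.90, 6.82 and 6.57 cpm in NIL-Prl5ST-1, at 6.91, 5.99 and 4.74 cpm in NIL-Pbl6ST-1, at 6.03, 5.90 and 6.18 cpm in NIL-Prl5ST-1+Pbl6ST-1, and at 3.06, 3.45 and 3.81 cpm in Koshihikari. The log2 fold changes were 0.91, 0.78 and 0.80 in the order of these lines (adjusted p = 0.0264, 0.0161 and 0.0229, edgeR), and without Koshihikari replicate 1 the adjusted p was 0.160, 0.0656 and 0.102. Of the 3 transcripts of that list, 1, 3 and 2 were called higher in the lines in the same order. Of all transcripts, 0.743%, 8.49% and 2.16% were called in these lines.

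The words for alpha-amylase took in 26 transcripts, of which 11 passed the filter. Of these 11, 0 were called in NIL-Prl5ST-1 (2 at an unadjusted P below 0.05, and 1 called by DESeq2), and 2 were higher and 3 lower in each line with the Pbl6 segment, against 8.49% of all transcripts called in NIL-Pbl6ST-1 and 2.16% in NIL-Prl5ST-1+Pbl6ST-1. The 3 lower ones were the transcripts of a single alpha-amylase isozyme 3D locus, and the 2 higher ones are described as lipid transfer and amylase inhibitor domain proteins. Os07t0287400-01 was at 136, 120 and 122 cpm in NIL-Pbl6ST-1 and at 108, 107 and 90.3 cpm in NIL-Prl5ST-1+Pbl6ST-1, against 56.3, 61.0 and 58.3 cpm in Koshihikari (1.10, adjusted p = 2.4e-05, and 0.79, adjusted p = 0.00120). Without Koshihikari replicate 3 the count in NIL-Prl5ST-1+Pbl6ST-1 was 1. A relative of SPY described as SECRET AGENT (Os01t0915400-00), with 5 to 27 counts per library, was lower in NIL-Pbl6ST-1 (-1.29, adjusted p = 0.0331) and was called in 7 of 13 alternatives.

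The ratio of GID1 to SLR1 counts, a measure chosen after the values were seen, was 2.15, 1.64 and 2.11 in NIL-Prl5ST-1, 1.71, 1.498 and 1.94 in NIL-Pbl6ST-1, 1.60, 1.52 and 1.74 in NIL-Prl5ST-1+Pbl6ST-1, and 1.38, 1.73 and 1.42 in Koshihikari. In NIL-Prl5ST-1 it was higher by 0.38 on the log2 scale (exact two-sided permutation p = 0.2, where 0.1 is the smallest p that 3 against 3 libraries can give), with overlapping libraries.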
